A study of Rattus norvegicus with 23 samples.

Results

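The genes described here are the enzymes, transporters and regulators of glycolysis together with the hypoxia-inducible factors (HIF), the proteins that control them and their best known target genes. The list was fixed by name and holds 37 genes, of which 36 are among the 20301 genes of the deposited table. They are 4 transporters of glucose and lactate, 14 glycolytic enzymes, 3 regulators of glycolysis, 5 HIF subunits and regulators, and 10 HIF targets outside glycolysis. The enzyme Gapdh was listed too but was not analysed here.

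RNA was sequenced from microglia of Wistar rat pups at postnatal day 7, isolated 24 h after the operation with magnetic beads against CD11b/c. The 6 Sham pups had a neck incision under isoflurane and no listed injection, and the 5 LPS pups received lipopolysaccharide at 0.1 mg/kg into the peritoneum 4 h before the same sham surgery. The 6 NaCl/HI samples came from pups injected with NaCl, and the 6 LPS/HI samples from pups injected with the same dose of LPS, before ligation of the left common carotid artery and 50 min of hypoxia at 8% oxygen. Each Sham or LPS sample was the entire brain of 1 pup, whereas each NaCl/HI or LPS/HI sample pooled the ipsilateral hemispheres of 2 pups, so hypoxia-ischemia (HI) cannot be told apart from the tissue taken and from pooling. LPS against Sham likewise compares injected pups with pups for which no injection is listed. The pups were of both sexes.

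Glycolysis splits glucose into pyruvate, and lactate dehydrogenase turns pyruvate into lactate when pyruvate is not passed on to the mitochondria. Myeloid cells, microglia included, commonly raise glycolysis when they sense bacterial products such as LPS. Under normal oxygen the HIF alpha subunits are hydroxylated by the prolyl hydroxylases (Egln genes), bound by the von Hippel-Lindau protein (Vhl) and degraded. When oxygen is low they persist and activate genes of glucose uptake, glycolysis, vessel growth and mitophagy, largely by binding the hypoxia response element. The core of this element often holds the letters ACGTG. HIF activity is thus set mostly at the protein level, which RNA does not measure.

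To show where these letters lie in genes that results below turn on, the 250 bases before the start of 4 members are given, taken from the RefSeq promoters of assembly GRCr8 and read 5′ to 3′ on the strand of the gene, with every ACGTG on either strand in capitals. Ldha (chr1:106507842-106508091, plus strand), Bnip3 (chr1:203154963-203155212, minus strand) and Ankrd37 (chr16:53001257-53001506, plus strand) hold the letters, and Tpi1 (chr4:159305089-159305338, minus strand) does not. Ldha and Tpi1 are enzymes that passed the test in LPS, and Bnip3 and Ankrd37 are HIF targets that did not.
Ldha: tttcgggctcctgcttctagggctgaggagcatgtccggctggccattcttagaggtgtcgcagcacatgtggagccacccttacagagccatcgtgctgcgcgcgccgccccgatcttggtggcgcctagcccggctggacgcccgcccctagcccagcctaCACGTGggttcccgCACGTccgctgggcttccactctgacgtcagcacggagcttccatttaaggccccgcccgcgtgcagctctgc
Tpi1: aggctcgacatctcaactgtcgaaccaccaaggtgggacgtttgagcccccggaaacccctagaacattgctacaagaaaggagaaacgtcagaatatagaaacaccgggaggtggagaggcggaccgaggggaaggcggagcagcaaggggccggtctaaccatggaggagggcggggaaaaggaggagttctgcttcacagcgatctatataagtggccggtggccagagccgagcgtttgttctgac
Bnip3: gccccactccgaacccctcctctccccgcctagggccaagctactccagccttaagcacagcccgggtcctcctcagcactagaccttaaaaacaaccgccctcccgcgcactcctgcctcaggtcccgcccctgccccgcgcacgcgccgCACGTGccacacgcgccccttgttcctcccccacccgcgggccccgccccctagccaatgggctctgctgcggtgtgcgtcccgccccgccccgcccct
Ankrd37: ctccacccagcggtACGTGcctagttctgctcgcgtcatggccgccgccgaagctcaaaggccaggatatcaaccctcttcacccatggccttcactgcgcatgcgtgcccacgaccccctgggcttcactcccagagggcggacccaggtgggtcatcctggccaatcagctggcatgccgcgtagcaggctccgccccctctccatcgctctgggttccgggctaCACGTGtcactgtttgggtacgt
The stretch CACGTG reads ACGTG on both strands, so it counts as 1 match on each, and 3 matches were found for Ldha, 2 for Bnip3 and 3 for Ankrd37.

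Of the 31 members with a RefSeq promoter, 13 held ACGTG in the 250 bases before at least 1 start (41.9%). Some members have several starts, and counted by start the letters were found in 13 of 36 (36.1%), against 16.6% of all 33469 promoters of that length. Among the 8 of these members that passed the test in at least 1 pair of groups the letters were found in 3 (Aldoa, Aldoc and Ldha), and among the 23 that did not pass they were found in 10. The share was thus 37.5% in members that passed and 43.5% in members that did not. HIF targets outside glycolysis held them in 3 of 7. A match is only a run of letters and is no evidence of binding. Other forms of the element were not searched for.

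The values are log2 values made with the rlog transformation, which draws genes with few reads toward their mean and so understates their differences. A difference of 1 is a doubling. The depth of the libraries is unknown, since no counts were used, and intervals for counting error are not given. The median of a library lay between 7.75 and 7.82, and the median difference of all genes was at most 0.014 in size in any pair. Replicates are labelled as biological without their litters, so p-values measure the spread between these samples. A gene is called higher or lower when limma's adjusted p over all genes is under 0.05.

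Markers of microglia were abundant, since 11 of 12 lay above the level of 96% of all genes, the exception being Siglech at -1.05. Markers of other cells were present as well, with mean levels of endothelial markers from 8.16 (Sox17) to 12.46 (Tie1) and of neutrophil markers from -0.21 (Ctsg) and 0.33 (Elane) to 10.04 (S100a9) and 11.79 (Csf3r). In such bulk samples, fewer cells of a type and less RNA per cell cannot be told apart.

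Of the 36 members, 9 passed the test in at least 1 pair of groups, 8 of the 14 glycolytic enzymes and the regulator Pfkfb4. Averaged over the 14 enzymes, a sample's log2 value ran from 11.78 to 11.93 in Sham (median 11.86, n = 6), from 11.93 to 12.19 in LPS (median 12.06, n = 5), from 11.85 to 12.11 in NaCl/HI (median 12.03, n = 6) and from 11.98 to 12.11 in LPS/HI (median 12.02, n = 6). None of the members that are HIF subunits, HIF regulators, HIF targets outside glycolysis or transporters passed the test in any pair of groups. Some of them did pass under alternative settings or with 1 library left out, as given below.

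Whether LPS alone altered these genes is asked by LPS against Sham. In LPS, 9 of 36 members were higher and 0 were lower, where 10.2% of all genes were higher and 7.56% lower. Of the 9, 8 were glycolytic enzymes (of 14 analysed) and the ninth was Pfkfb4, a bifunctional enzyme that sets the level of the main activator of phosphofructokinase. The enzymes reached from the isomerase of the second step to lactate dehydrogenase: Gpi, Aldoa, Aldoc, Tpi1, Pgk1, Eno1, Pkm and Ldha. Rises were small, from 1.17-fold for Gpi to 1.34-fold for Eno1. Of the 36 members, 14 are among the 10% of genes with the highest mean, and abundant genes were called higher more often. Among the 10% of genes with the highest mean, a background added after seeing the data, 20.2% were higher in LPS, against 7 of the 14 members in that stratum.

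Eno1, the enolase that forms phosphoenolpyruvate, lay between 13.22 and 13.41 in Sham with a median of 13.31. Its LPS samples were at 13.82, 13.80, 13.58, 14.005 and 13.45. In NaCl/HI it ran from 13.30 to 13.72 (median 13.71) and in LPS/HI from 13.55 to 13.75 (median 13.62). Every LPS and LPS/HI sample lay above every Sham sample, and 5 of 6 NaCl/HI samples did. LPS exceeded Sham by 0.42 (standard error 0.086, adjusted p = 0.00191).

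Tpi1, triosephosphate isomerase, ranged from 11.38 to 11.64 in Sham (median 11.48). In LPS its values were 11.92, 11.87, 11.75, 12.15 and 11.73, all above Sham. It ran from 11.50 to 11.90 in NaCl/HI (median 11.75) and from 11.70 to 11.89 in LPS/HI (median 11.78). The LPS/HI samples were also all above Sham, and the difference of LPS from Sham was 0.39 (standard error 0.075, adjusted p = 0.00116).

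Pgk1, phosphoglycerate kinase, which makes the first ATP of the pathway, lay between 11.95 and 12.17 in Sham (median 12.06). The LPS samples stood at 12.49, 12.46, 12.37, 12.66 and 12.25. The range was 12.06 to 12.52 in NaCl/HI (median 12.38) and 12.27 to 12.56 in LPS/HI (median 12.43). Here again no LPS or LPS/HI sample overlapped with Sham, and LPS was higher by 0.38 (standard error 0.078, adjusted p = 0.00174).

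Ldha encodes the lactate dehydrogenase subunit that favours lactate, and its promoter is printed above. It ran from 12.12 to 12.47 in Sham (median 12.24), and its LPS values were 12.66, 12.59, 12.50, 12.98 and 12.49. In NaCl/HI the range was 12.27 to 12.72 (median 12.56) and in LPS/HI 12.40 to 12.66 (median 12.56). LPS did not overlap with Sham, while NaCl/HI and LPS/HI did. The difference of LPS from Sham was 0.37 (standard error 0.092, adjusted p = 0.0085).

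Pkm, the pyruvate kinase of most tissues, lay between 13.67 and 14.01 in Sham (median 13.93). LPS gave 14.27, 14.23, 14.11, 14.41 and 14.02, NaCl/HI 13.77 to 14.33 (median 14.26) and LPS/HI 14.08 to 14.31 (median 14.18). The lowest LPS sample was just above the highest Sham sample. LPS was higher than Sham by 0.34 (standard error 0.093, adjusted p = 0.0136).

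Gpi, glucose-6-phosphate isomerase, was between 12.28 and 12.41 in Sham (median 12.35), at 12.63, 12.60, 12.52, 12.67 and 12.49 in LPS, between 12.31 and 12.60 in NaCl/HI (median 12.52) and between 12.40 and 12.61 in LPS/HI (median 12.53). LPS and Sham did not overlap, with a difference of 0.23 (standard error 0.052, adjusted p = 0.00407).

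The aldolases split the sugar bisphosphate. Aldoa ran from 13.004 to 13.18 in Sham (median 13.10), and its LPS values were 13.43, 13.40, 13.29, 13.48 and 13.08. It lay between 13.08 and 13.47 in NaCl/HI (median 13.42) and between 13.30 and 13.51 in LPS/HI (median 13.33). The last LPS sample fell within the Sham range, and the difference of 0.24 (standard error 0.073, adjusted p = 0.0256) did not pass when the exact Wilcoxon test was used for all genes instead.

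Aldoc, the aldolase typical of astrocytes in brain, was between 10.28 and 10.61 in Sham (median 10.44) and at 10.59, 10.84, 10.82, 10.69 and 10.81 in LPS. It lay between 10.01 and 10.68 in NaCl/HI (median 10.33) and between 10.48 and 10.86 in LPS/HI (median 10.61). LPS and Sham overlapped in 1 LPS sample, and LPS was higher by 0.31 (standard error 0.089, adjusted p = 0.0197). Of the astrocyte markers, all 10 had a higher mean in LPS than in Sham, 2 of them past the test (Fgfr3 by 0.37 and Aldh1l1 by 0.26), and their mean per sample was 9.99 to 10.44 in Sham and 10.26 to 10.59 in LPS. Their part in the Aldoc difference was not tested.

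Pfkfb4 lay between 9.14 and 9.40 in Sham (median 9.19), whereas LPS stood at 9.43, 9.54, 9.49, 9.53 and 9.65. In NaCl/HI it ran from 9.12 to 9.35 (median 9.29) and in LPS/HI from 9.26 to 9.46 (median 9.35). The LPS samples were above all Sham and all NaCl/HI samples, and exceeded Sham by 0.30 (standard error 0.058, adjusted p = 0.00102). The plot of these 9 genes by sample shows the separation.

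**Figure D1:**
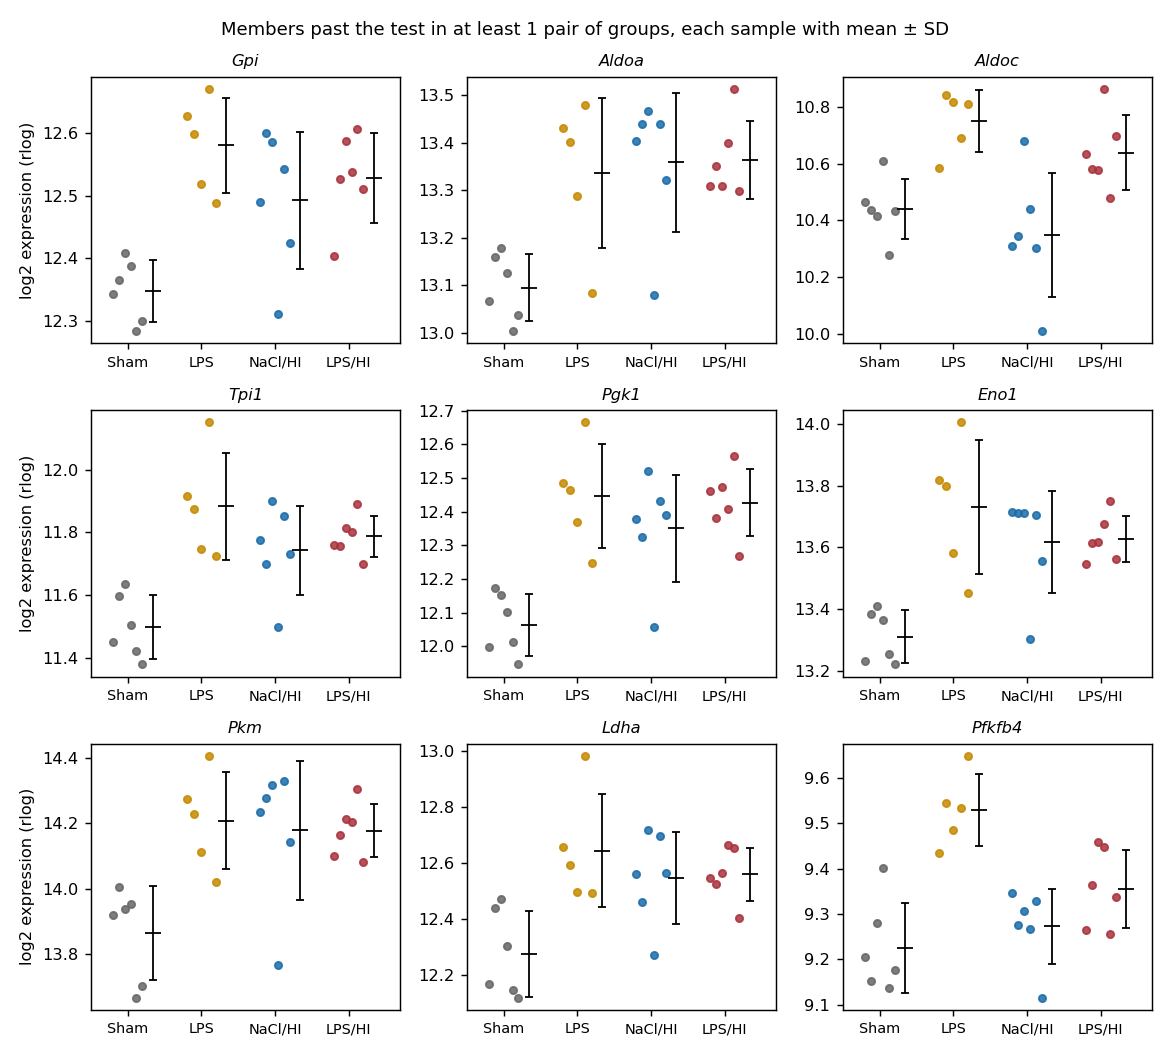
The log2 expression (y axis) of the 9 members that passed the test in at least 1 pair of groups is plotted for each sample of Sham, LPS, NaCl/HI and LPS/HI, with points for samples and black marks for mean ± SD (n = 6, 5, 6 and 6). For Tpi1, Pgk1, Eno1 and Pkm all LPS and LPS/HI samples lie above all Sham samples, and 1 NaCl/HI sample lies at Sham level. The y axes do not start at 0.

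The 3 members with the largest falls in LPS did not pass. They were Epas1, the alpha subunit of HIF-2 (difference -0.22, standard error 0.086, adjusted p = 0.0765), the inducible hexokinase Hk2 (-0.19, standard error 0.07, adjusted p = 0.0667) and Slc16a1, the lactate and ketone transporter MCT1 (-0.18, standard error 0.078, adjusted p = 0.114). Hk2 ran from 12.54 to 12.91 in Sham (median 12.80), stood at 12.65, 12.58, 12.66, 12.60 and 12.41 in LPS, and ran from 12.54 to 12.91 in NaCl/HI (median 12.84) and from 12.51 to 12.71 in LPS/HI (median 12.59). It overlapped between all groups, and its mean, unlike those of the enzymes called, was lower in LPS than in Sham. Pgam1 was higher by 0.18 with an adjusted p of 0.0504, and Hk1, Pfkl, Pfkm and Pfkp differed by -0.14 to 0.12 without passing.

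Groups did not overlap in LPS against Sham for 7 members, where this held for 13.9% of all genes. With 1 library left out the number of members called stayed between 7 and 12, and Aldoa was the gene lost most often, in 5 of 23 cases. The 12 arose without Sham replicate 1, where Epas1, Hk2 and Slc16a1 were called lower, and 1 of these 3 was also called lower without Sham replicate 6, NaCl/HI replicate 2 or NaCl/HI replicate 6. Reads of Eno1, Ldha, Pkm, Pgam1, Aldoa, Pgk1 and Tpi1 may be shared with processed pseudogenes, of which the RefSeq table lists 31, 30, 19, 13, 9, 8 and 3, so their values are uncertain to that extent.

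The other genes of the pathways, from lists chosen with earlier results known, gave both directions. Of 33 further genes of glycolysis and pyruvate use, 6 were higher and 3 lower in LPS than in Sham, where 10.2% of all genes were higher and 7.56% lower. The largest rises among genes that passed were those of Mpc1, a subunit of the mitochondrial pyruvate carrier (0.29), and Pdk2, a kinase that inhibits pyruvate dehydrogenase (0.27), and the largest falls Pdk4, another such kinase (-0.45), and the lactate transporter Slc16a7 (-0.26). Of 19 further HIF regulators, 5 were higher, led by Elob, a partner of Vhl in its ubiquitin ligase (0.34), and Cited2, which competes with HIF for its coactivators (0.28). Bmal1, a clock factor of the same protein family as HIF, was the single one lower (-0.20). Of 36 further HIF targets, 4 were higher, with Mif (0.54) and Plod1 (0.27) the largest, and 5 lower, among them Edn1 (-0.31) and Jmjd6 (-0.20).

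HI alone was compared with Sham through NaCl/HI. Here 0 of 36 members were higher and 0 lower, where 0.00985% of all genes, 2 genes, were higher and 0% lower. At an unadjusted p under 0.05 there were 12 members against 14.8% of all genes, and these were Gpi, Pfkl, Aldoa, Tpi1, Pgk1, Pgam1, Eno1, Pkm, Ldha, Slc16a3, Vhl and Vegfa. The enzymes Gpi, Aldoa, Tpi1, Pgk1, Eno1, Pkm and Ldha differed from Sham by 0.14 to 0.31, with adjusted p from 0.132 for Pgk1 to 0.204 for Gpi. The exact Wilcoxon test called 0 of all 20301 genes and so could call no member. Groups overlapped for every member, against 1.01% of genes without overlap.

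NaCl/HI replicate 4 was the lowest of its group in 7 of the 9 genes plotted above and lay within the range of Sham in each of the 7. Without it 556 of all genes were called in NaCl/HI against Sham, and 8 members, all higher: Gpi, Aldoa, Tpi1, Pgk1, Pgam1, Eno1, Pkm and Ldha. The same library had the lowest mean of neutrophil markers (5.36), of monocyte markers (8.73) and of oligodendrocyte lineage markers (8.58) in its group. It had the highest mean of border-associated macrophage markers (11.37) and of neuronal markers (6.84). The part of these cells in its enzyme values was not tested.

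The largest positive differences in NaCl/HI against Sham were those of Slc16a3, the lactate exporter MCT4 (0.49, standard error 0.155, adjusted p = 0.181), Vegfa, the vascular growth factor (0.39, standard error 0.132, adjusted p = 0.203), and Pkm (0.31, standard error 0.088, adjusted p = 0.152). The largest negative ones were Pfkp (-0.14, standard error 0.071, adjusted p = 0.353), Ankrd37 (-0.13, standard error 0.077, adjusted p = 0.427) and the glucose transporter Slc2a1 (-0.13, standard error 0.073, adjusted p = 0.422). Pfkfb4 and Aldoc, both higher in LPS, differed from Sham by 0.05 and -0.09. None of the further pathway genes passed in this pair.

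In LPS/HI, the inflammation-sensitized injury, 7 of 36 members were higher than in Sham and 0 lower, where 5.3% of all genes were higher and 3.48% lower. All 7 were enzymes: Pgk1 by 0.36 (standard error 0.074, adjusted p = 0.0069), Eno1 by 0.32 (adjusted p = 0.0231), Pkm by 0.31 (adjusted p = 0.0313), Tpi1 by 0.29 (adjusted p = 0.0181), Ldha by 0.28 (adjusted p = 0.047), Aldoa by 0.27 (adjusted p = 0.0226) and Gpi by 0.18 (adjusted p = 0.0295). Each of them was also among the 9 called in LPS, but both comparisons use the same Sham samples. In the most abundant 10% of genes 8.13% were higher, against 7 of 14 members. Groups did not overlap for 6 members (Aldoa, Tpi1, Pgk1, Eno1, Pkm and Slc2a3), against 6.37% of genes.

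The LPS/HI calls were less settled than those in LPS. Leaving out 1 library gave between 2 and 8 members, while the calls over all genes ran from 769 to 2544 (1781 with every library). Without LPS/HI replicate 5, which gave the 769, only Pgk1 and Tpi1 were called, without Sham replicate 5 Eno1, Pgk1 and Tpi1, without Sham replicate 6 Aldoa, Pgk1 and Tpi1, and without LPS/HI replicate 2, 3 or 4 Aldoa, Eno1, Pgk1 and Tpi1. Ldha kept its call in 8 of 23 such cases and did not pass by the exact Wilcoxon test. With every library, only Pgk1 and Tpi1 were called with a replicate block, and only Pgk1 at an adjusted p under 0.01.

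Among the members not called in LPS/HI against Sham, Slc2a3, the high-affinity glucose transporter GLUT3 of neurons and leukocytes, had the largest difference, 0.57 (standard error 0.184, adjusted p = 0.0538), followed by Vegfa with 0.37 (standard error 0.132, adjusted p = 0.0829). Slc2a3 did pass there by the exact Wilcoxon test, with 19 degrees of freedom, with array weights or with the lowest 25% of genes left out. It also passed without NaCl/HI replicate 4 or LPS/HI replicate 6. Vegfa passed with only the groups compared, with 19 degrees of freedom, with array weights and without NaCl/HI replicate 6. Ndrg1 and Pfkfb3 passed without Sham replicate 1 and with array weights. The falls were led by Hk2 (-0.16, standard error 0.067, adjusted p = 0.122), the mitophagy receptor Bnip3l (-0.08, standard error 0.058, adjusted p = 0.358) and Pdk1, the pyruvate dehydrogenase kinase that HIF is known to induce (-0.08, standard error 0.046, adjusted p = 0.254). Pfkfb4 and Aldoc, called in LPS, stood at 0.13 and 0.20 here, each with an adjusted p of 0.137.

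**Figure D2:**
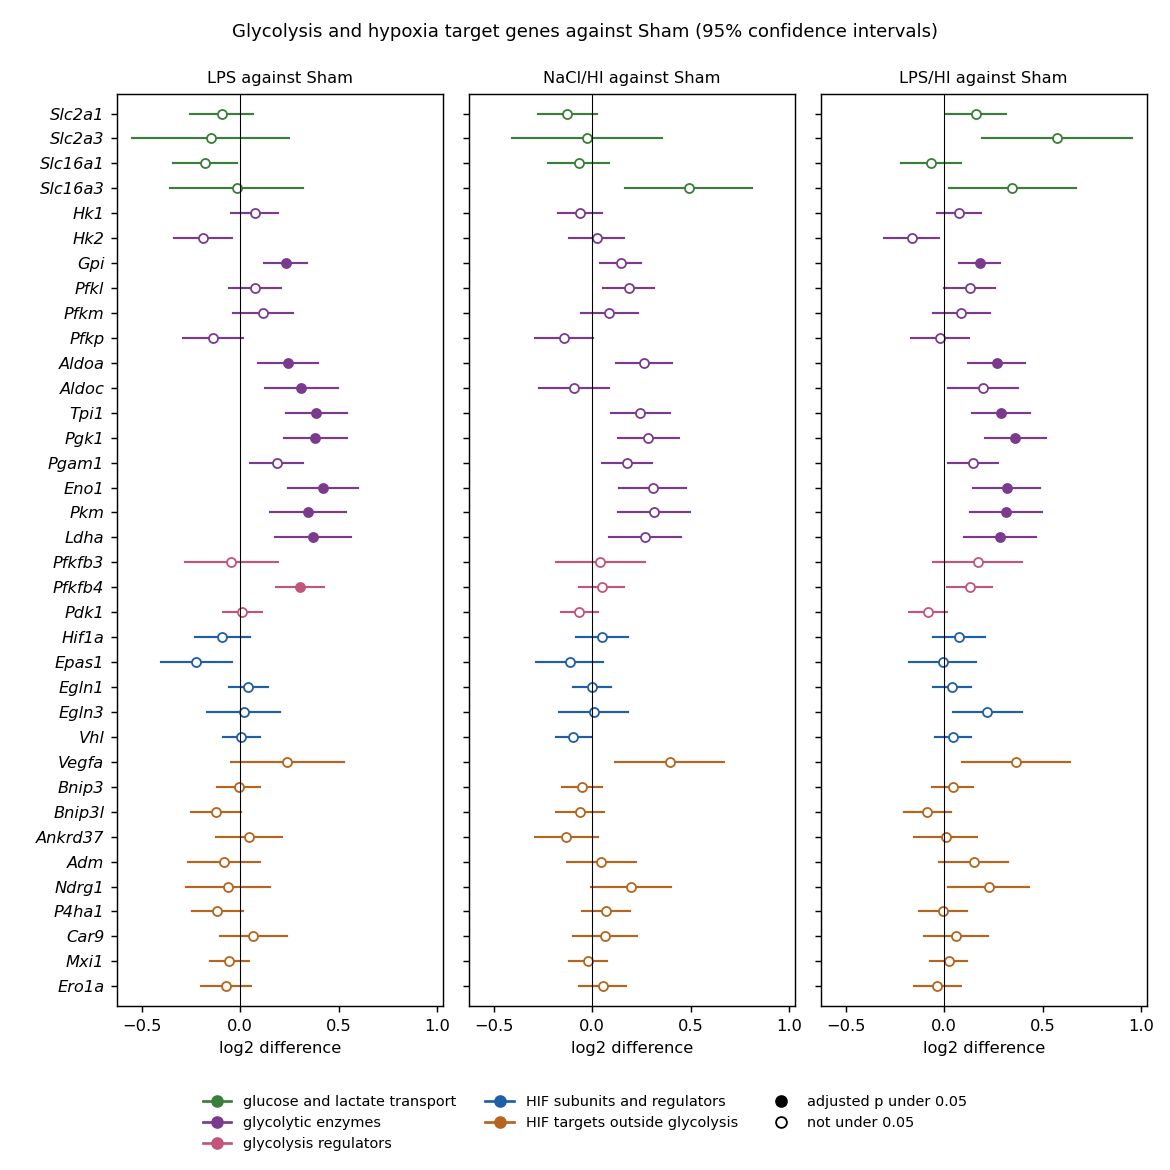
Log2 differences (x axis) from Sham are plotted for the 36 members in LPS, NaCl/HI and LPS/HI, coloured by role, with points for the difference, bars for the 95% confidence interval and filled points for an adjusted p under 0.05. Filled points are confined to glycolytic enzymes and Pfkfb4, with 9 in LPS, 0 in NaCl/HI and 7 in LPS/HI.

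Of the further genes of glycolysis and pyruvate use, 2 were higher in LPS/HI than in Sham and 2 lower, where 5.3% of all genes were higher and 3.48% lower. They were the hexokinase Hk3 of myeloid cells (1.13) and the transporter chaperone Bsg (0.20), and the muscle mutase Pgam2 (-0.29) and the pyruvate dehydrogenase phosphatase Pdp2 (-0.19). Beside Hk3, 3 of 14 neutrophil markers were higher (S100a8, S100a9 and Padi4). Their list had a mean of 5.49 to 5.76 in Sham samples and 5.57 to 6.19 in LPS/HI, and its part in the Hk3 difference was not tested. In NaCl/HI, Hk3 differed from Sham by 1.59 (adjusted p = 0.0788). Of the 14 neutrophil markers 11 had a higher mean in NaCl/HI than in Sham, 0 of them past the test, which 2 of all genes passed, and their list had a mean of 5.36 to 5.92. S100a8 and S100a9 were among the genes the study picked on these samples.

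Of the 19 further HIF regulators 2 were higher (Elob by 0.19 and Os9 by 0.13) and 2 lower (Bmal1 by -0.31 and the ubiquitin ligase Siah2 by -0.26). Of the 36 further HIF targets 6 were higher, among them Anxa2 (0.52), and 1 was lower, the glycogen synthase Gys1 (-0.18). Of all genes 5.3% were higher and 3.48% lower.

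Adding HI to LPS was examined in LPS/HI against LPS. By limma 0 of 36 members were higher and 0 lower, where it called 1.22% of all genes higher and 0.719% lower. The 8 enzymes called in LPS differed by -0.11 to 0.03 between these groups. At an unadjusted p under 0.05 there were 9 members, against 15.5% of all genes, and groups did not overlap for 2, Slc2a3 and Ndrg1, against 4.17% of genes.

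The largest difference was that of Slc2a3. It was at 7.83, 7.55, 7.61, 7.41 and 7.53 in LPS and between 7.92 and 9.34 in LPS/HI (median 8.16), so each LPS/HI sample exceeded each LPS sample, and the difference of 0.72 (standard error 0.192, adjusted p = 0.0532) fell short of the threshold. In Sham it ran from 7.29 to 7.90 (median 7.85) and in NaCl/HI from 7.39 to 8.07 (median 7.78). The value of 9.34 belonged to LPS/HI replicate 4, which also had the highest mean of neutrophil markers of all samples (6.19). LPS/HI replicates 1 and 3 had nearly the same mean of these markers (6.10 and 6.08), with Slc2a3 at 8.32 and 8.07. Without that library the difference of Slc2a3 was 0.52 against LPS, 0.37 against Sham and 0.39 against NaCl/HI. Neutrophils express this transporter, and their part was not tested.

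Slc2a1, the glucose transporter GLUT1 of microglia and of the vessels of the brain, lay between 11.36 and 11.81 in Sham (median 11.72) and at 11.60, 11.61, 11.56, 11.49 and 11.52 in LPS. It ran from 11.37 to 11.63 in NaCl/HI (median 11.54) and from 11.58 to 11.97 in LPS/HI (median 11.86). In LPS/HI 5 of 6 samples were above the highest LPS sample, and the difference was 0.26 with an adjusted p of 0.078. Slc16a3 differed by 0.36 (standard error 0.163, adjusted p = 0.276) and Ndrg1, a HIF-induced stress gene, by 0.29 (standard error 0.103, adjusted p = 0.153). On the negative side stood Pfkfb4 (-0.17, standard error 0.058, adjusted p = 0.122), Aldoc (-0.11, standard error 0.089, adjusted p = 0.612) and Eno1 (-0.10, standard error 0.086, adjusted p = 0.631).

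Calls of transporters in this pair came and went with single libraries. Slc2a1 and Slc2a3 were both called without Sham replicate 5, Slc2a1 without LPS/HI replicate 1 and Slc2a3 without LPS/HI replicate 6. Of the further pathway genes, Eno2, the enolase of neurons (0.36), the single one called of 33, and 5 of 36 HIF targets were higher in LPS/HI than in LPS, where 1.22% of all genes were higher, among them Edn1 (0.48), the precursor of the vessel constrictor endothelin. Another of the 5 was Flt1 (0.31), which is an endothelial marker too.

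LPS sensitization within HI was asked by LPS/HI against NaCl/HI, where both groups were hemispheres of pooled pups. By limma 0 of 36 members passed in either direction, where it called 0.153% of all genes higher and 0.0493% lower. There were 7 members at an unadjusted p under 0.05, against 10.6% of all genes, and none without overlap, against 1.33%. The exact Wilcoxon test called 0 of all genes here and in LPS/HI against LPS, so it says nothing of the members. The 7 enzymes called in LPS/HI against Sham differed by no more than 0.08 between the HI groups. Of the further pathway genes, 1 of 36 HIF targets was higher and no other passed.

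The largest positive differences were those of Slc2a3 (0.60, standard error 0.184, adjusted p = 0.197), Aldoc (0.29, standard error 0.085, adjusted p = 0.162) and Slc2a1 (0.29, standard error 0.073, adjusted p = 0.0964). Slc2a1 was called without LPS/HI replicate 1. The largest negative differences were those of Hk2 (-0.19, standard error 0.067, adjusted p = 0.284), Slc16a3 (-0.14, standard error 0.155, adjusted p = 0.779) and Ero1a, an oxidase of protein folding in the endoplasmic reticulum (-0.09, standard error 0.057, adjusted p = 0.618).

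Endothelial markers were examined beside Slc2a1. The mean of LPS/HI exceeded that of NaCl/HI for 13 of 13, none past the test, and their mean per sample was 10.55 to 10.66 in NaCl/HI and 10.63 to 10.93 in LPS/HI. Of all 20301 genes, 10659 had the higher mean in LPS/HI and 0.153% were called higher. In LPS/HI against LPS 12 of 13 endothelial markers had the higher mean in LPS/HI, 2 of them past the test, and 9 of 9 markers of mural cells did, again with 2 past the test. In that pair 10346 of all 20301 genes had the higher mean in LPS/HI and 1.22% were called higher. The part of endothelial or mural RNA in the Slc2a1 values was not tested.

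LPS and HI as separate stimuli were set against each other in LPS against NaCl/HI. Here 2 of 36 members were higher in LPS and 0 lower, where 5.32% of all genes were higher and 3.66% lower. Aldoc was higher by 0.40 (standard error 0.089, adjusted p = 0.0064) and Pfkfb4 by 0.26 (standard error 0.058, adjusted p = 0.00726), the latter without overlap, as in 7.31% of all genes. Neither passed when only these groups entered the fit, which called 494 of all genes. Of the 10 astrocyte markers, 9 had a higher mean in LPS, 2 of them past the test (Fgfr3 by 0.37 and Aldh1l1 by 0.30). The exception, Gfap, had the largest difference by size, -0.60 (adjusted p = 0.144). The part of astrocyte RNA in the Aldoc difference was not tested, and NaCl/HI replicate 6 had both the lowest Aldoc value (10.01) and the lowest mean of astrocyte markers (9.90) of all samples.

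Ankrd37 had the next largest rise (0.18, standard error 0.081, adjusted p = 0.191). Lower in LPS, without passing, were Slc16a3 (-0.51, standard error 0.163, adjusted p = 0.0534), Ndrg1 (-0.26, standard error 0.103, adjusted p = 0.122) and Hk2 (-0.21, standard error 0.07, adjusted p = 0.0636). Slc16a3 stood at 9.69, 9.48, 9.71, 9.33 and 9.18 in LPS and between 9.51 and 10.52 in NaCl/HI (median 9.93), with an overlap. It was called lower with the replicate block, the run of library numbers as a term, 19 degrees of freedom, quantile normalization, array weights or the lowest 25% of genes left out, and also without LPS replicate 3, NaCl/HI replicate 4 or 6, or LPS/HI replicate 1, and without NaCl/HI replicate 6 5 members were called in all.

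Of the further genes of glycolysis and pyruvate use, 4 were higher and 3 lower in LPS than in NaCl/HI, where 5.32% of all genes were higher and 3.66% lower. Pdk2 (0.24) and Bsg (0.22) led the rises, and Hk3 (-1.28) and Eno2 (-0.39) the falls. Of the 19 further HIF regulators 2 were higher, Cited2 (0.40) and Elob (0.29). Of the 36 further HIF targets 3 were higher, with Narf (0.29) and Gbe1 (0.19) the largest of those called, and 2 lower, Vldlr (-0.39) and Loxl2 (-0.32).

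Among the members, no HIF subunit or HIF target outside glycolysis passed the test in the main fit. Hif1a, the alpha subunit of HIF-1, lay between 11.36 and 11.53 in Sham (median 11.46), at 11.39, 11.35, 11.46, 11.39 and 11.19 in LPS, between 11.42 and 11.75 in NaCl/HI (median 11.46) and between 11.38 and 11.72 in LPS/HI (median 11.50). All groups overlapped, and its differences between pairs ran from -0.14 to 0.17. Vegfa was between 9.55 and 10.15 in Sham (median 9.81), at 10.03, 10.11, 10.11, 10.27 and 9.75 in LPS, between 9.64 and 10.60 in NaCl/HI (median 10.29) and between 10.04 and 10.36 in LPS/HI (median 10.17). It too overlapped between all groups, and NaCl/HI samples were the most spread.

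The prolyl hydroxylases Egln1 and Egln3 differed from Sham by at most 0.22, and Vhl by -0.10 to 0.05. The mitophagy receptor Bnip3, whose promoter is printed above, differed from Sham by -0.05 to 0.04. The differences from Sham were -0.13 to 0.04 for Ankrd37, -0.08 to 0.15 for the peptide adrenomedullin (Adm), -0.12 to 0.07 for the collagen hydroxylase P4ha1, 0.06 to 0.07 for the carbonic anhydrase Car9, -0.06 to 0.02 for the MYC antagonist Mxi1 and -0.07 to 0.05 for Ero1a, and none passed. Pfkfb3, the other bifunctional regulator, differed by -0.04 to 0.17.

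**Figure D3:**
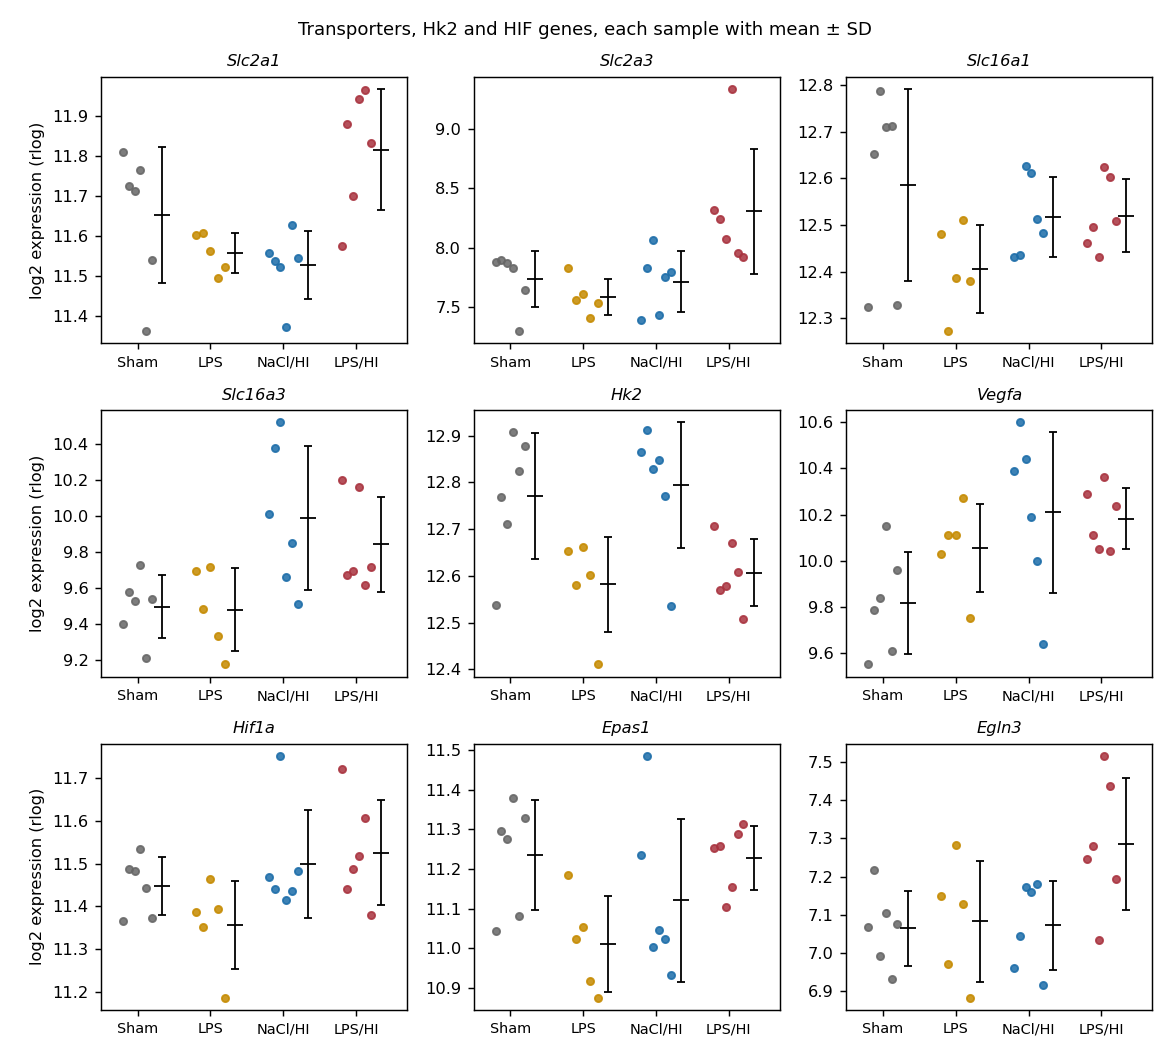
The log2 expression (y axis) of 4 transporters, Hk2 and 4 HIF genes is plotted for each sample of the 4 groups, with points for samples and black marks for mean ± SD (n = 6 Sham, 5 LPS, 6 NaCl/HI and 6 LPS/HI). Slc2a3 and Slc2a1 are highest in LPS/HI, where Slc2a3 has 1 sample at 9.34, and Hif1a overlaps between all groups. The y axes do not start at 0.

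Whether the response to LPS depended on HI was tested as the interaction, the difference of LPS/HI from NaCl/HI minus that of LPS from Sham. The NaCl/HI pups were injected and no injection is listed for Sham. The interaction therefore cannot be told apart from the injection, the tissue taken or pooling. For 0 of 36 members it was higher than 0 and for 0 lower, where 0.365% of all genes were higher and 0.719% lower. At an unadjusted p under 0.05 there were 14 members, against 15.1% of all genes. Of the 14 enzymes, 11 had a negative interaction, and Hk1, Hk2 and Pfkp did not. Of all 20301 genes, 9136 had a negative value. The interaction subtracts the difference of LPS from Sham, in which 8 of these enzymes were called higher. Its signs are thus not independent of those calls. The lowest were Eno1 with -0.41 (standard error 0.119, adjusted p = 0.0971), Ldha with -0.36 (standard error 0.128, adjusted p = 0.185), Pkm with -0.34 (standard error 0.128, adjusted p = 0.201) and Tpi1 with -0.34 (standard error 0.103, adjusted p = 0.111).

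The largest positive values were those of a pair of glucose transporters and Epas1, none past the test, while the lactate exporter Slc16a3 had a value of -0.13. The interaction was 0.75 for Slc2a3 (standard error 0.266, adjusted p = 0.179), 0.38 for Slc2a1 (standard error 0.106, adjusted p = 0.08) and 0.33 for Epas1 (standard error 0.119, adjusted p = 0.187). The 95% confidence intervals ran from 0.20 to 1.30, from 0.16 to 0.60 and from 0.08 to 0.58. Endothelial markers had a positive interaction in 13 of 13, of which 2 passed, Flt1 (0.38) and Abcb1a (0.39). The value was positive for 11165 of all 20301 genes, and 0.365% passed as higher. Epas1 is abundant in endothelium, and the part of endothelial RNA in these values was not tested. Without NaCl/HI replicate 4 the interaction passed for Eno1, Pgk1, Pkm and Tpi1 and for 493 of all genes (220 with every library), without LPS replicate 5 for Eno1 and 257 of all genes, and for Slc2a1 when Sham replicate 5 or LPS/HI replicate 1 was absent (242 and 164 of all genes). Of the further pathway genes, 3 of 36 HIF targets passed the test with a positive interaction, where 0.365% of all genes did, Edn1 (0.70) and Flt1 among them.

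**Figure D4:**
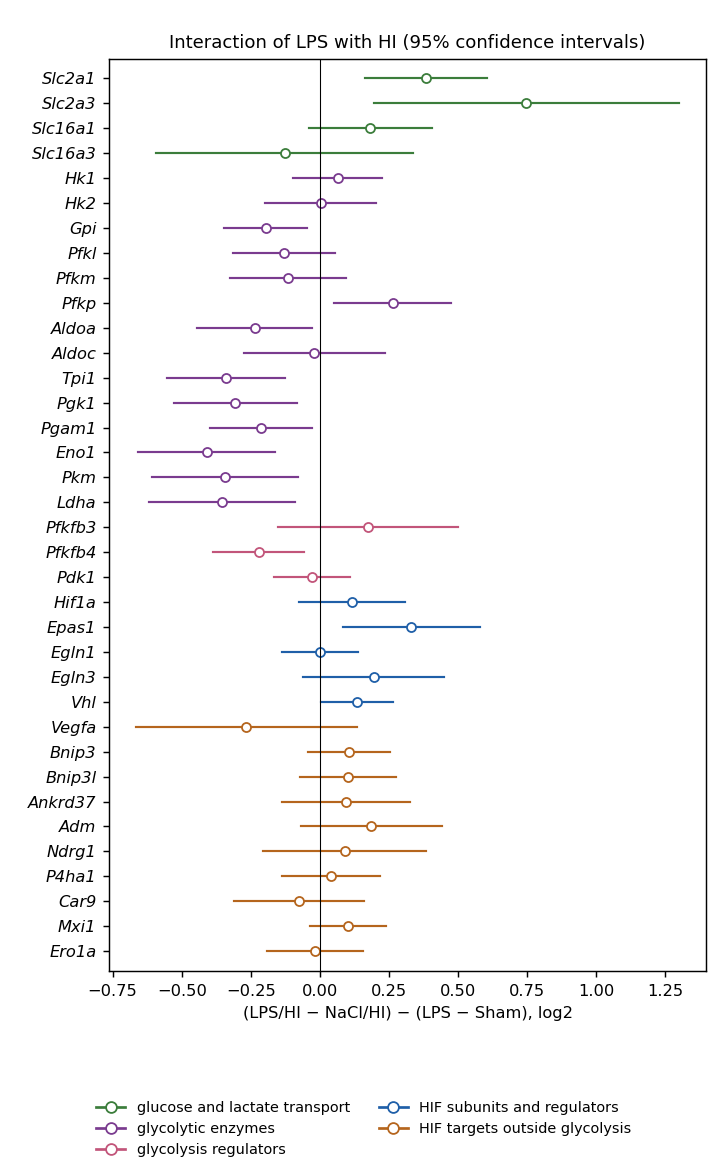
The interaction of LPS with HI (x axis, log2) is plotted for the 36 members, coloured by role, with points for the value and bars for its 95% confidence interval. The enzymes from Gpi to Ldha lie mostly left of 0 and Slc2a1, Slc2a3 and Epas1 right of 0, and no member passed an adjusted p of 0.05.

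**Figure D5:**
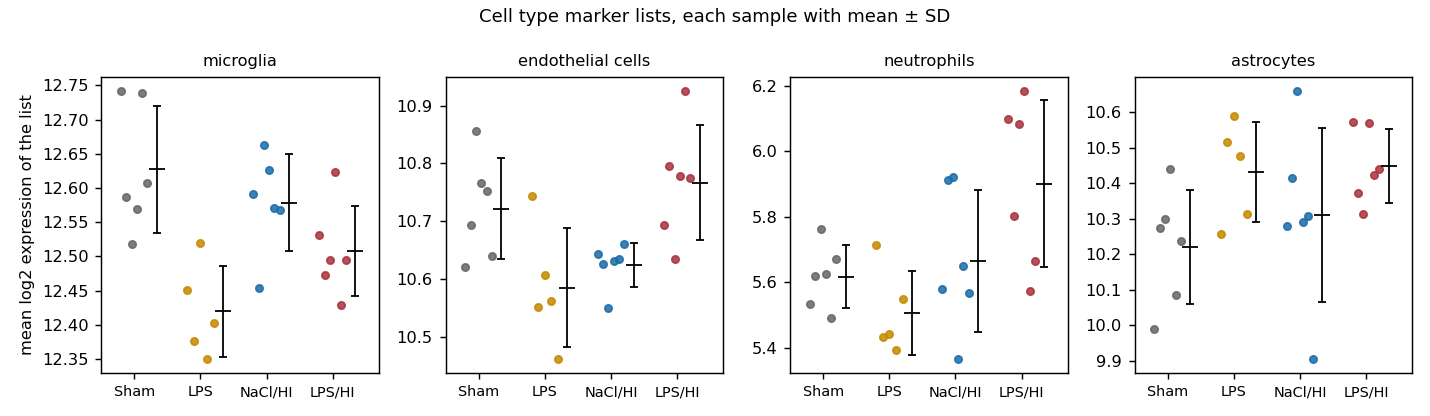
The mean log2 expression (y axis) of 4 lists of cell type markers is plotted for each sample, with points for samples and black marks for mean ± SD (n = 6 Sham, 5 LPS, 6 NaCl/HI and 6 LPS/HI). Microglia markers are lowest in LPS, with 6 of 12 lower than in Sham, and the neutrophil list is highest in LPS/HI replicate 4 at 6.19.

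Microglia markers were lower in LPS than in Sham for 6 of 12, among them P2ry12 (-0.36), Gpr34 (-0.42) and P2ry13 (-0.42), where 7.56% of all genes were lower. So were 5 of 11 neuronal, 5 of 13 endothelial and 3 of 9 border-associated macrophage markers. In LPS/HI against Sham 3 of 14 neutrophil, 3 of 8 monocyte, 2 of 9 mural, 2 of 10 astrocyte and 1 of 13 endothelial markers were higher. Lower there were 3 of 11 neuronal, 2 of 12 microglia and 1 of 9 border-associated macrophage markers. Of all genes 5.3% were higher and 3.48% lower in that pair. The part of these cells in the enzyme values was not tested. The samples' library numbers form a first run (1 to 12) and a second run (13 to 23). The smallest difference within a run among the 18 calls of members was 0.13, for Gpi in LPS/HI against Sham. The calls were chosen over both runs, so a common direction in the runs is no independent check.

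The study's own rule asks for a fold change above 2 besides an adjusted p under 0.05. The study applied it to DESeq2 fits of counts, with p-values adjusted by independent hypothesis weighting and folds shrunk by apeglm. Neither was used here. Applied here to limma fits of rlog values, which understate folds, 0 members passed in any comparison, where the rule passed 0.069% of all genes in LPS against Sham, 0.00493% in NaCl/HI against Sham, 0.0936% in LPS/HI against Sham, 0.0345% in LPS/HI against LPS, 0.0148% in LPS/HI against NaCl/HI, 0.0591% in LPS against NaCl/HI and 0.00985% in the interaction. The largest difference of any member between a pair of groups, that of Slc2a3 in LPS/HI against LPS, was 1.65-fold.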

How the data were processed

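Bulk RNA-sequencing values of 23 microglia samples were taken from the authors' deposited table, and samples were grouped by their titles. The authors quantified reads with kallisto 0.48.0 on mRatBN7.2, passed the estimates to DESeq2 after dropping sparsely counted genes and adding up protein-coding genes that share a symbol, and deposited log2 values made with rlog after 3 surrogate variables had been removed with sva and limma. rlog shrinks differences of weakly expressed genes. Removing variables while keeping the groups lowers the spread within groups, so p-values can be too low. The residuals from the group means had rank 16 rather than 19, so the residual degrees of freedom were lowered to 16.

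The 6 pairs of groups and the interaction were tested in 1 limma fit (limma 3.58.1, R 4.3.3, variance trend, two-sided) of all samples and all 20301 genes, with Benjamini-Hochberg adjustment over all genes and no filter on low values. The fit was tested on simulated data. Tables and plots were made with Python 3.11.15, pandas 2.3.3 and matplotlib 3.10.9. Depth is unknown, since counts were not used here.

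The members and lists were chosen with earlier results of these data known. Values by sample are given for members called in a pair of groups and for Hif1a, Slc2a1, Hk2, Ldha and Vegfa, with other members' values added where a result turned on them. The 3 largest differences in each direction are named for each pair, and of the further pathway genes up to 2 rises and 2 falls. In the interaction, and for single markers, genes were named after their values were seen. Some genes of the further lists are not reported here. Promoter sequences are those of RefSeq GRCr8 by symbol.

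Same-numbered replicates did not deviate together: of 33 pairs, 9 had a correlation over 0.1 (from -0.47 to 0.47), so the numbers were not taken to pair samples. Alternatives changed 1 choice at a time and included fits without each single library. Values within runs of library numbers and the share among abundant genes were added after seeing the data.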

Additional observations from a re-analysis of the deposited data

Results flagged for a closer look

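In 13 of 144 combinations of member and group, 1 sample lay apart from the others of its group by a wide gap (Dixon's criterion), where chance gives about 1 in 20. The high samples were Slc2a3 in LPS/HI replicate 4 at 9.34, Hif1a in NaCl/HI replicate 3 at 11.75, Bnip3l in Sham replicate 5 at 11.27, Mxi1 in Sham replicate 1 at 10.003 and Ero1a in LPS/HI replicate 1 at 10.22. The low samples were Hk1 in LPS replicate 4 at 11.74, Pfkl in Sham replicate 5 at 11.51, Aldoa and Pkm in NaCl/HI replicate 4 at 13.08 and 13.77, Pfkfb4 in NaCl/HI replicate 6 at 9.12, Egln1 in LPS/HI replicate 1 at 9.41, Bnip3 in NaCl/HI replicate 2 at 7.91 and Bnip3l in LPS replicate 4 at 10.86. Of these, the value of NaCl/HI replicate 4 bears on the number of enzymes called in NaCl/HI against Sham, and that of LPS/HI replicate 4 on the size of the Slc2a3 difference.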

How the results depend on the processing

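No called difference changed sign under any alternative. Several alternatives, such as 19 degrees of freedom, the exact Wilcoxon test or the thresholds, leave the difference itself unaltered, so its sign was fixed. The calls were chosen on these data, so a kept sign elsewhere is no independent check. Of the 18 calls, 12 remained with a replicate block, 14 with the exact Wilcoxon test (which called 0 of all genes in LPS against NaCl/HI, so that the loss of 2 calls there was fixed), 16 with only the groups compared, 9 at an adjusted p under 0.01, 0 with a fold change above 2 and 17 or 18 under each other setting that kept all libraries, and between 13 and 18 with 1 library left out. The number of members called moved as follows, and the cause was not tested. For LPS against Sham (9) it was 0 with the fold threshold. There, members were also called lower with 19 degrees of freedom (2), quantile normalization (1) and array weights (3), all of them among Epas1, Hk2 and Slc16a1. For NaCl/HI against Sham (0) it was 1 with 19 degrees of freedom and 6 with array weights (652 of all genes). For LPS/HI against Sham (7) it was 23 with array weights (8566 of all genes), 0 with the fold threshold and 1 at an adjusted p under 0.01. It was 2 with the replicate block, which took the numbers as pairs although few samples (5 of 23) correlated best with their own number. There, Slc2a3 and Vegfa were called under some of the settings, as given above. The array weights came from an estimate that stopped before convergence, and the same weights gave every count with array weights reported here. For LPS/HI against LPS (0) it was 2 with 19 degrees of freedom, 1 without the lowest 25% of genes and 10 with array weights (4059 of all genes), and for LPS/HI against NaCl/HI (0) it was 1 with 19 degrees of freedom and 10 with array weights (2932 of all genes). For LPS against NaCl/HI (2) it was 3 with the replicate block or the run of library numbers as a term (Slc16a3 added, lower), 5 with 19 degrees of freedom or quantile normalization, 4 without the lowest 25% of genes or with array weights, and 0 with only the groups compared, the Wilcoxon test or the fold threshold. For the interaction (0) it was 3 with 19 degrees of freedom and 13 with array weights (2207 of all genes). With 1 library left out, the counts ran from 7 to 12, 0 to 8, 2 to 8, 0 to 2, 0 to 1, 2 to 5 and 0 to 4 in the same order. Depth is unknown, and weakly expressed members such as Ankrd37 and Car9 are shrunk most by rlog.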
